A study of Mus musculus with 2 samples.

Results

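The genes of RANK, CD40 and the noncanonical NF-kB pathway were followed across the epithelial cells of the mouse thymus, in a control library and in a library from irradiated mice. The set holds 9 genes, chosen by symbol from the 32285 genes listed in the matrices: the receptors Tnfrsf11a, Cd40 and Ltbr, the secreted decoy receptor Tnfrsf11b, the adaptors Traf6 and Traf3, the kinase Map3k14, and the transcription factor subunits Relb and Nfkb2. Thymic epithelial cells (TECs; EpCAM+ CD45- TER119-) came from female C57BL/6 mice, with the cells of 3 mice pooled for each condition, and were profiled by droplet-based 3' single-cell RNA sequencing. One pool was taken 15 days after a sublethal dose of 5.5 Gy given at 7 weeks of age, and the other from age-matched mice without irradiation. The labels give an age of 9 weeks in the sample fields and of 4 weeks in the protocol field.

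The deposit and its files disagree on which library is which. The sample labelled as irradiated holds the matrix named as control, with 4937 barcodes, and the sample labelled as control holds the matrix named as irradiated, with 7167. Cells with over 2000 and under 7500 detected genes and under 15% mitochondrial UMIs were kept, 3233 and 5070 of them. Taken by matrix name, the kept numbers equal those described for control and irradiated mice, whereas under the sample labels they would be swapped. The libraries are therefore called control (3233 cells) and irradiated (5070 cells) by their matrix names, and every direction between them given here would turn around under the sample labels. With 1 library for each condition there is no replicate, so no p-value was computed. The intervals are exact 95% Poisson intervals for levels and Clopper-Pearson intervals for shares. Those of log2 ratios join opposite ends of both Poisson intervals, and those of ratios with gates weighted alike are narrower normal approximations. All cover counting error only. The intervals of levels and ratios treat UMIs as independent and leave out variation between the cells of a gate. They can therefore be too narrow, also where gates are called apart or a step resolved.

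Kept cells held a median of 13412 UMIs in the control and 13004 in the irradiated library, from 3810 to 58293. A total of 17 barcodes occurred in both libraries, 5 of them among the kept cells of each. Cells were put into 14 gates by the UMIs of marker genes, and 10 gates held at least 50 cells in each library. Control and irradiated cells numbered 613 and 991 in the Aire-high gate (8 or more Aire UMIs), 152 and 266 in the Aire-intermediate gate (3 to 7), 929 and 1500 in the Ccl21a-high gate (50 or more Ccl21a UMIs), and 140 and 319 in the cTEC-like gate (Psmb11 and Prss16). The G2/M gate held 215 and 539, the S-phase gate 53 and 117, the tuft-like gate 163 and 156, the enterocyte-like gate 114 and 141, the Pdpn-positive gate 159 and 121, and 568 and 710 cells met no gate. Among markers that the gates did not use, Cxcl12, Gnat3 and Fezf2 went with the names cTEC-like, tuft-like and Aire-high. Cxcl12 stood at 19.4 and 16.6 UMIs per 10000 in cTEC-like cells against 0.120 and 0.124 in Aire-high cells. The 5 cTEC markers together were less far apart. They summed to 100.2 and 132.6 in cTEC-like and to 14.73 and 12.99 in Aire-high cells. Gnat3 stood at 7.68 and 6.61 in tuft-like cells, and Fezf2 at 6.70 and 6.84 in Aire-high cells. The 5 tuft markers summed to 30.64 and 33.02 in tuft-like and to 0.4517 and 0.3495 in Aire-high cells. The enterocyte-like name was less clear. The 4 enterocyte markers summed to 59 and 69 there but to 171 and 125 in microfold-like cells. The 4 Aire cell markers summed to 43.7 and 50.8 in enterocyte-like and to 45.1 and 42.3 in Aire-high cells. Ptprc, the gene of CD45, stood at 0.0621 and 0.0305 in Aire-high cells. Gate overlap, here and below, was counted among the cortical, thymocyte, tuft-like, Aire-high, keratinocyte-like, microfold-like, enterocyte-like and Ccl21a-high rules only. By this count 222 control and 423 irradiated cells met more than 1 gate. Overlap with the G2/M, S-phase, Aire-intermediate and Pdpn rules was left out. Of the S-phase and G2/M cells, 164 control and 312 irradiated ones held 8 or more Aire UMIs.

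RANK, CD40 and the lymphotoxin beta receptor are receptors of the tumor necrosis factor family whose ligands come largely from lymphoid cells of the thymus, and their signals are needed for the medullary epithelium and its Aire-expressing cells. In resting cells TRAF3 keeps the kinase NIK (Map3k14) at a low protein level. Receptor binding stabilizes NIK, the Nfkb2 product is cut to its active form, and that form enters the nucleus with RelB, while TRAF6 carries the signal from RANK and CD40 to the canonical branch. Osteoprotegerin (Tnfrsf11b) binds the RANK ligand and keeps it from the receptor. NIK and the cutting of the Nfkb2 product act at the protein level, which transcript counts do not show.

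The promoters of Nfkb2 and Traf3 are shown because they were the member promoters with a match to the NF-kB consensus motif, searched by this name on both strands. RefSeq windows of 300 bases (250 before and 50 after a start, GRCm38.p6) were at hand for 6 of the 9 genes, as 8 windows, and 4 of these (3 of Nfkb2 and 1 of Traf3) held a match, beside 8.46% of all 32851 windows. Counted by gene, 2 of the 6 held a match, beside 9.55% of 27025 genes. The windows of Tnfrsf11a, Ltbr, Traf6 and Map3k14 held none. Capitals mark the matches, read 5′ to 3′ on the gene's strand.
Nfkb2, first start (chr19:46304487-46304786, + strand): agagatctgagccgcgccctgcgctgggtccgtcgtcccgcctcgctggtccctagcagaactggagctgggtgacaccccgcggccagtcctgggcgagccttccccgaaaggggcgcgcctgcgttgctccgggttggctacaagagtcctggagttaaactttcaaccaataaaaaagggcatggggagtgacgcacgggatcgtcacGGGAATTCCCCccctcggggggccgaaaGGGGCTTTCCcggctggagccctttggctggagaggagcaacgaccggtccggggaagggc
Nfkb2, second start (chr19:46305445-46305744, + strand): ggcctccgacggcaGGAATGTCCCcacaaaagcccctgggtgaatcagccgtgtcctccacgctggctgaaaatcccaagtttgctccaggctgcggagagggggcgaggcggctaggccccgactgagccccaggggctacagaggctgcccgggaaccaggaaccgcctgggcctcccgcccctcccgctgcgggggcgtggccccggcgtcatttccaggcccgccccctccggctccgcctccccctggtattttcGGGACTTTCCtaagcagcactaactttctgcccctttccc
Traf3 (chr12:111166120-111166419, + strand): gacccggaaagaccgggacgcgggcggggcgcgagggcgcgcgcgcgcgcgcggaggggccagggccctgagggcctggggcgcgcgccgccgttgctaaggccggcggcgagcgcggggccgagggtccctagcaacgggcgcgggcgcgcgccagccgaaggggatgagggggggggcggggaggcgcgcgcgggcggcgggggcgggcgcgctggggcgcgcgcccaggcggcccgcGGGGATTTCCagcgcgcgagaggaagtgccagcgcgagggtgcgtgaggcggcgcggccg
In the first Nfkb2 window the letters were GGGAATTCCC, with an overlapping match 1 base on, and GGGGCTTTCC. In the second they were GGAATGTCCC and GGGACTTTCC, the latter also inside the remaining Nfkb2 window, which overlaps this one, and in Traf3 GGGGATTTCC. These are descriptions of letters in the windows and not of binding.

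Tnfrsf11a was highest in cells with Aire and in the enterocyte-like cells among the gates with at least 50 cells in each library, and lowest in the cTEC-like and Pdpn-positive cells. It is the receptor for the RANK ligand (GRCm38 chr1:105780718-105847981). Control and irradiated levels were 1.93 (1.76 to 2.11) and 1.66 (1.53 to 1.80) UMIs per 10000 UMIs in Aire-intermediate cells, 1.58 (1.41 to 1.77) and 1.81 (1.62 to 2.01) in enterocyte-like cells, and 1.57 (1.5 to 1.64) and 1.60 (1.54 to 1.66) in Aire-high cells. The order of these 3 gates was not resolved, since their intervals overlapped in at least 1 library. S-phase cells (1.15 and 1.43), G2/M cells (1.09 and 1.16) and cells in no gate (1.02 and 1.02) followed, also without a step between neighbours. Below them each step was resolved in both libraries, through Ccl21a-high cells at 0.771 and 0.729 and tuft-like cells at 0.585 and 0.554 to Pdpn-positive cells at 0.125 and 0.273 and cTEC-like cells at 0.180 and 0.201. The highest level was 15.5 times the lowest in the control and 9.01 times in the irradiated library.

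The share of cells with a Tnfrsf11a UMI followed the same course. With each cell thinned to 4000 UMIs, 45.4% (41.4 to 49.4) of control and 44.2% (41.1 to 47.4) of irradiated Aire-high cells held one, against 23.4% and 22.6% of Ccl21a-high cells. The lowest shares among gates of at least 50 cells in each library, which serve as the background, were 3.57% (1.17 to 8.14) and 6.90% (4.37 to 10.3) in cTEC-like cells. Without thinning the Aire-high shares were 90.0% and 85.7% at median depths of 19935 and 16939 UMIs, and the cTEC-like shares 15.7% and 18.2% at 17866 and 15123.

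Tnfrsf11b had a steeper profile than its partner on the same axis. It stood at 1.51 (1.45 to 1.58) and 1.46 (1.40 to 1.51) in Aire-high cells, at 0.855 and 1.29 in enterocyte-like cells and at 1.13 and 1.01 in Aire-intermediate cells. Dividing cells held less, with 0.655 and 0.765 in G2/M and 0.440 and 0.642 in S-phase. In Ccl21a-high cells, where Tnfrsf11a was present, Tnfrsf11b was at 0.0692 (0.0545 to 0.0866) and 0.0650 (0.0533 to 0.0785), and 1.40% and 2.07% of thinned cells held a UMI. Those shares did not stand above the 2.52% and 1.65% of Pdpn-positive or the 2.14% and 2.19% of cTEC-like cells, so no expression is read from them. The Pdpn-positive (0.0415 and 0.0561), cTEC-like (0.130 and 0.0303) and tuft-like (0.0969 and 0.231) gates lay in the same low range without a resolved order.

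Cells of the microfold-like gate (20 or more UMIs of Gp2, Ccl9, Ccl20 and Sox8) stood above all of these. Microfold cells of the gut epithelium depend on the RANK ligand for their development. The gate held 27 control and 32 irradiated cells, too few for the comparison of libraries, and its unused markers were high, with Spib at 6.81 and 5.19 and Tnfaip2 at 5.02 and 4.65. Reg3g, a marker listed for enterocytes, was also high there, at 162 and 118. Tnfrsf11b reached 5.76 (5.11 to 6.47) and 9.22 (8.43 to 10.1), from 286 UMIs in 20 of the 27 cells and 492 UMIs in 29 of the 32. Tnfrsf11a was at 2.60 (2.17 to 3.09) and 2.68 (2.26 to 3.16). In both libraries the intervals of both genes lay above those of the Aire-high cells, and neither gene was used for the gate. Cd40 did not share this, at 0.202 (0.0966 to 0.371) and 0.525 (0.349 to 0.759) in the same cells. Of the microfold-like cells, 16 control and 15 irradiated ones met more than 1 gate and held 216 and 221 of the Tnfrsf11b UMIs. In the other 11 and 17 cells Tnfrsf11b was at 4.18 and 10.7 and Tnfrsf11a at 2.74 and 3.20.

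**Figure D1:**
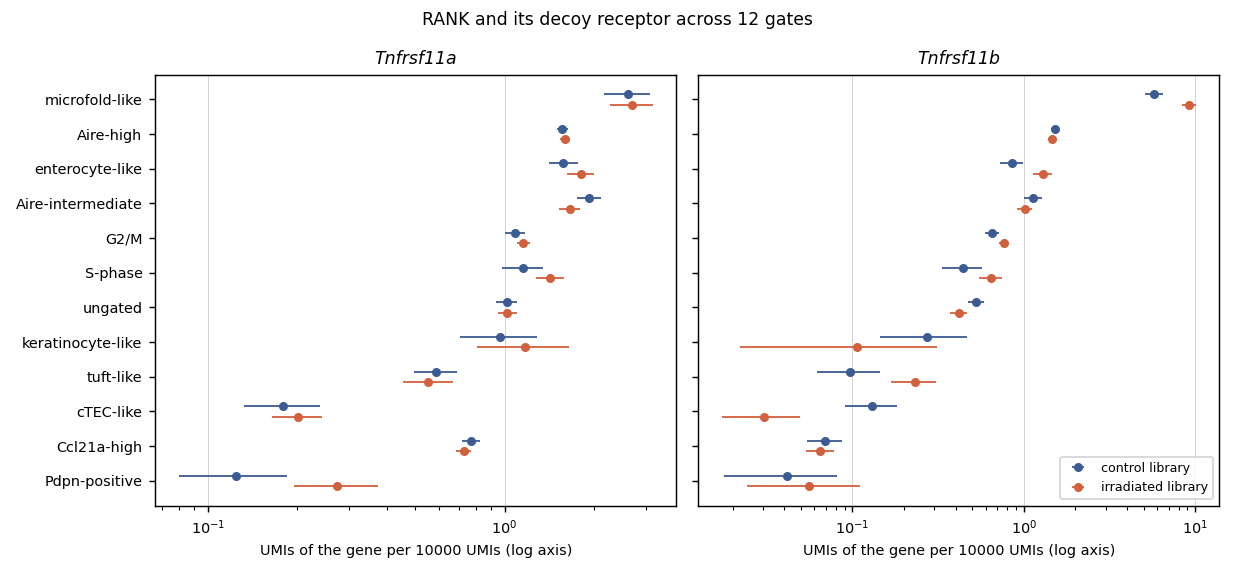
Tnfrsf11a (left) and Tnfrsf11b (right) in UMIs per 10000 UMIs on a log axis, across 12 gates; points are the control and irradiated libraries and bars are exact 95% Poisson intervals. Microfold-like cells are highest for both genes (2.60 and 2.68 for Tnfrsf11a, 5.76 and 9.22 for Tnfrsf11b), while Ccl21a-high cells hold Tnfrsf11a at 0.771 and 0.729 but Tnfrsf11b at 0.0692 and 0.0650.

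Cd40, the receptor for the CD40 ligand (chr2:165055627-165072948), was highest in Aire-high cells, at 1.74 (1.67 to 1.81) and 1.71 (1.65 to 1.77), above every other gate of at least 50 cells in both libraries. Aire-intermediate cells (1.10 and 1.14), G2/M cells (0.980 and 0.994), S-phase cells (0.926 and 0.870) and enterocyte-like cells (0.726 and 0.584) came next. The rest was at or under 0.457, with cTEC-like cells at 0.203 and 0.297, Ccl21a-high cells at 0.169 and 0.253, tuft-like cells at 0.109 and 0.103, and Pdpn-positive cells at 0.0363 and 0.161. After thinning, 43.2% (39.3 to 47.3) of control and 44.5% (41.4 to 47.7) of irradiated Aire-high cells held a Cd40 UMI, against 1.23% and 2.56% of tuft-like cells. Of the blood cells that carry CD40, the 3 B cell markers summed to 0.125 and 0.201 and the 4 dendritic cell markers to 0.109 and 0.0841 UMIs per 10000 in Aire-high cells, with none at 0, against 0.0401 and 0.00783 and 0.00182 and 0.00301 in Ccl21a-high cells. The 3 macrophage markers summed to more, at 0.517 and 0.490 in Aire-high and 0.0209 and 0.0151 in Ccl21a-high cells. The 3 wider blood cell markers summed to 5.68 and 5.13 in Aire-high cells, of which Laptm5 made up 4.91 and 4.42, and to 0.380 and 0.182 in Ccl21a-high cells. Their part in the Cd40 level was not tested.

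Ltbr, the lymphotoxin beta receptor (chr6:125306571-125313885), ran the other way. It was highest in cTEC-like cells, at 0.424 (0.349 to 0.511) and 0.335 (0.288 to 0.388), and lowest in Aire-high cells, at 0.0669 (0.0534 to 0.0829) and 0.0645 (0.0531 to 0.0776). Pdpn-positive (0.306 and 0.203), enterocyte-like (0.259 and 0.229), ungated (0.251 and 0.230) and Ccl21a-high cells (0.228 and 0.214) lay between without a resolved order. The cTEC-like cells were not apart from the Pdpn-positive and enterocyte-like ones in both libraries. Nor were Aire-high cells apart from G2/M (0.0736 and 0.0958), Aire-intermediate (0.110 and 0.0742) and S-phase cells (0.121 and 0.0975). Its counts were low, with 84 and 112 UMIs over all Aire-high cells.

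Relb (chr7:19606217-19629438) and Nfkb2 (chr19:46304320-46312385), the subunits of the noncanonical dimer, were both highest in Aire-high cells. Relb stood at 3.67 (3.56 to 3.77) and 4.02 (3.93 to 4.12) there, between 2.83 and 3.33 in the Aire-intermediate, G2/M, enterocyte-like and S-phase gates, and at 1.38 and 1.60 in Ccl21a-high cells. It stood at 1.18 (1.05 to 1.32) and 1.58 (1.47 to 1.69) in cTEC-like cells and was lowest in tuft-like (0.638 and 0.677) and Pdpn-positive cells (0.488 and 0.932). The thinned share of cells with a Relb UMI was 72.4% and 76.1% in Aire-high cells, 36.9% and 42.7% in Ccl21a-high cells and 15.3% and 17.3% in tuft-like cells.

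Nfkb2 stood at 2.15 (2.07 to 2.24) and 2.0 (1.94 to 2.07) in Aire-high cells and at 1.69 and 1.69 in Aire-intermediate cells. G2/M cells held 1.61 and 1.42, enterocyte-like cells 1.34 and 1.60, and S-phase cells 1.41 and 1.08. Ccl21a-high cells held 0.868 and 0.757. The tuft-like (0.650 and 0.636), cTEC-like (0.60 and 0.682) and Pdpn-positive gates (0.425 and 0.554) were lowest and were not apart from each other. The highest level was 5.06 and 3.62 times the lowest, a smaller range than the 7.52 and 5.94 times of Relb.

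Of the signalling proteins upstream, Traf3 and Map3k14 varied less over gates than Traf6. Traf6 (chr2:101678429-101701669) was highest in Aire-high cells at 0.509 (0.470 to 0.550) and 0.541 (0.507 to 0.576), with Ccl21a-high cells at 0.151 and 0.167 and tuft-like cells at 0.137 and 0.180, and its highest level was 3.71 and 3.86 times the lowest. Traf3 (chr12:111166370-111267153), the brake on NIK, was nearly level, from 0.341 to 0.493 in the control and from 0.336 to 0.559 in the irradiated library. No 2 gates were apart for Traf3 in both libraries. Map3k14 (chr11:103219762-103267472) was also within a narrow range, lowest in S-phase (0.159 and 0.154) and G2/M cells (0.158 and 0.159) and at 0.275 (0.247 to 0.305) and 0.253 (0.230 to 0.278) in Aire-high cells.

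**Figure D2:**
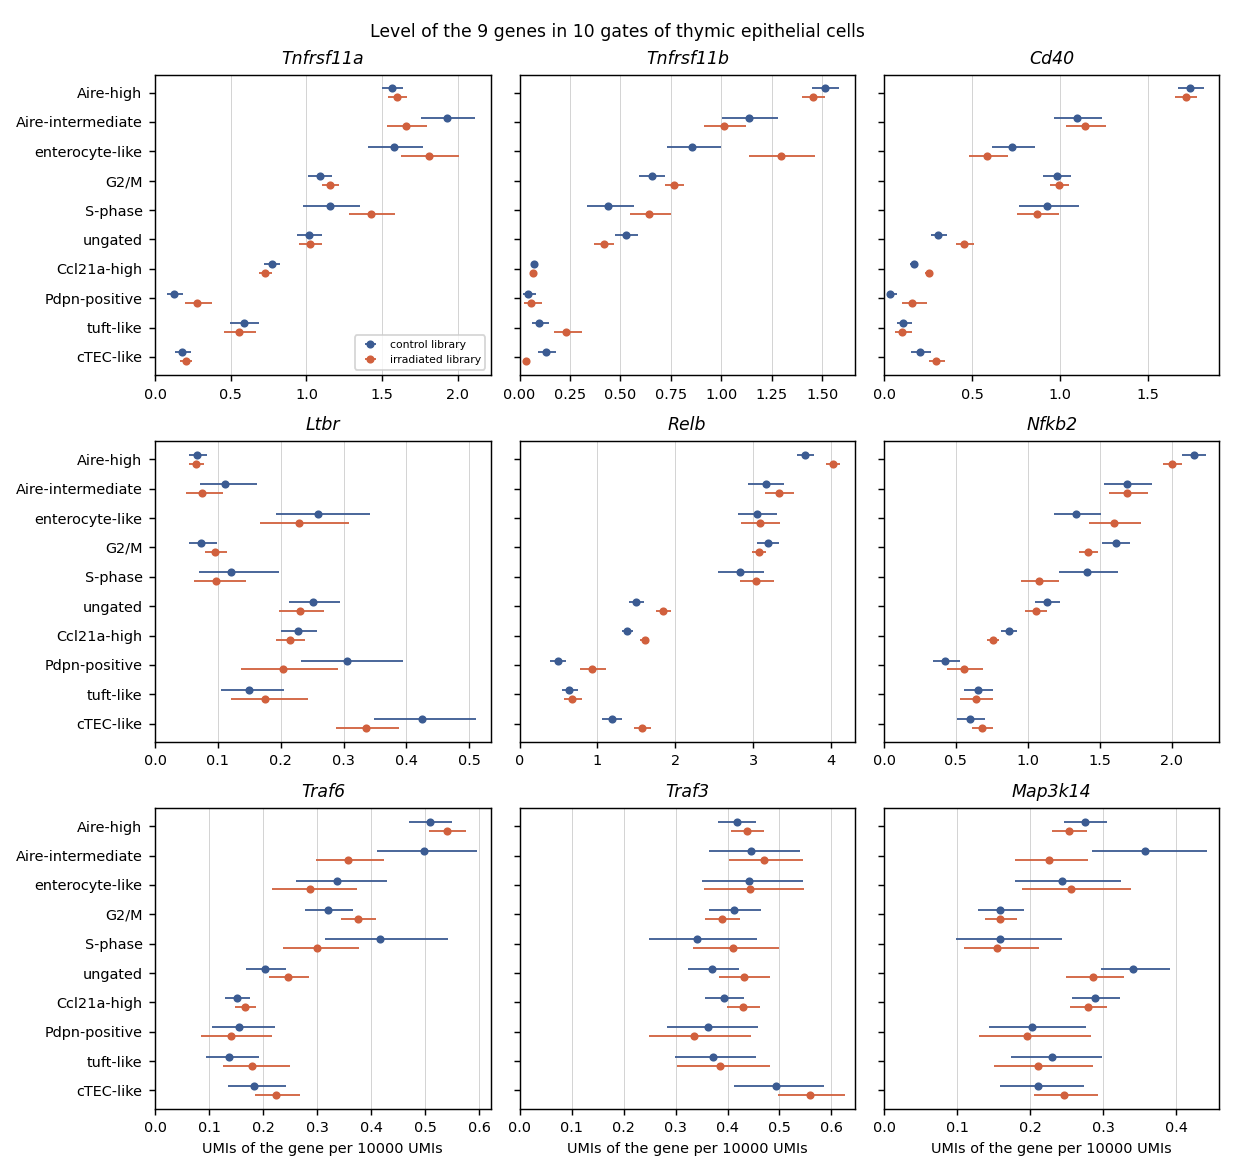
Levels of the 9 genes in UMIs per 10000 UMIs in the 10 gates with at least 50 cells in each library; points are the control and irradiated libraries and bars are exact 95% Poisson intervals. Cd40, Relb and Nfkb2 are highest in Aire-high cells in both libraries, and Traf3 stays between 0.336 and 0.559 throughout. Ltbr is lowest in Aire-high cells (0.0669 and 0.0645), though not apart from G2/M, Aire-intermediate and S-phase cells.

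Against Ccl21a-high cells, 6 of the 9 genes were at least 2-fold higher in Aire-high cells in both libraries, 1 was at least 2-fold lower and 2 were neither. Of 16786 genes with enough UMIs, 30.1% were higher and 13.1% lower by the same rule. Tnfrsf11b differed most, 21.7-fold in the control and 22.3-fold in the irradiated library, then Cd40 (10.2-fold and 6.74-fold), Traf6 (3.36-fold and 3.24-fold), Relb (2.65-fold and 2.51-fold), Nfkb2 (2.48-fold and 2.65-fold) and Tnfrsf11a (2.03-fold and 2.19-fold). The Tnfrsf11b folds rest on 76 and 108 UMIs in Ccl21a-high cells, where no expression was read from the shares, so their size depends on that background. Ltbr was the gene that was lower, at 0.295 and 0.302 times, and Traf3 (1.06 and 1.02 times) and Map3k14 (0.952 and 0.909 times) were neither. The median log2 difference of the 9 genes was 1.31 and 1.33, beside 0.08 and 0.05 over all genes tested. Tnfrsf11a passed the limit by little, so its place among the 6 rests on where the limit was set.

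Against cTEC-like cells the same 6 genes were higher, Ltbr was lower, and Traf3 and Map3k14 were neither, beside 29.3% of 16211 genes higher and 13.7% lower. Tnfrsf11a was 8.64-fold and 7.94-fold higher in Aire-high cells, Cd40 8.51-fold and 5.74-fold, Relb 3.10-fold and 2.55-fold, and Nfkb2 3.58-fold and 2.94-fold. For Tnfrsf11b the values were 11.5-fold and 46.6-fold, on 34 and 16 UMIs in cTEC-like cells. The median over the 9 genes was 1.63 and 1.35 on the log2 scale, beside 0.04 and 0.03 over all genes tested. The cTEC-like levels depended on cells that met more than 1 gate, 31 control and 84 irradiated ones. Tnfrsf11a was at 0.501 and 0.384 in these and at 0.0626 and 0.129 in the other cTEC-like cells. Cd40 was at 0.358 and 0.445 against 0.146 and 0.240.

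The wider pathway was read from a list of 32 other genes, of which 30 had enough UMIs. Between Aire-high and Ccl21a-high cells, 13 were higher, 5 lower and 12 neither, with a median log2 difference of 0.85 and 0.86. By role, the gene with the most UMIs was named. Ltb, a lymphotoxin subunit, was 17.3-fold and 15.7-fold higher, Birc2, which with TRAF3 marks NIK for degradation, 2.05-fold and 2.04-fold, and Nfkbia, the inhibitor that the canonical branch removes, 3.53-fold and 3.71-fold. Tnfrsf1a, a receptor for tumor necrosis factor, was lower at 0.201 and 0.221 times. Nfkb1, a canonical subunit, was neither at 0.924 and 1.03 times, nor was Ccl19, a chemokine target, at 1.82 and 1.29 times. The 5 lower genes were Tnfrsf1a, Tnfrsf12a, Traf5, Bcl3 and Tnfaip3. The ligand Tnfsf11 (RANKL) had 29 and 66 UMIs in Aire-high cells, or 0.0231 and 0.0380 per 10000. It was 10.3-fold and 18.2-fold higher there than in Ccl21a-high cells. Cd40lg had too few UMIs for the comparison. The 12 thymocyte genes summed to 0.276 and 0.261 in Aire-high and to 0.0583 and 0.0319 in Ccl21a-high cells. Their part in the Ltb and Tnfsf11 values was not tested.

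The members differed in how they went along with Aire. Nondividing cells outside the cortical, tuft and thymocyte gates were thinned to 4000 UMIs and split by their Aire UMIs into 0, 1, 2 to 3, 4 to 6, and 7 or more. They took in the Ccl21a-high (929 and 1500), Pdpn-positive (159 and 121) and ungated cells (568 and 710). Those held under 3 raw Aire UMIs and could not reach the bins of 4 or more. The bins thus differ in cell type as well as in Aire, and their makeup was not counted. Tnfrsf11a stepped once, from 0.786 and 0.791 in cells with 0 Aire UMIs to 1.59 and 1.65 in cells with 1, and then lay between 1.56 and 1.85. Cd40 increased over several steps, from 0.178 and 0.272 through 0.841 and 0.885 at 1 Aire UMI and 1.49 and 1.47 at 2 to 3, to 1.91 and 1.88 at 7 or more. Relb went from 1.37 and 1.60 to 3.95 and 4.32. Nfkb2 went from 0.911 and 0.866 to 2.63 and 2.01, and Tnfrsf11b from 0.374 and 0.305 to 2.16 and 1.59.

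Ltbr was lower in cells with Aire, from 0.267 (0.230 to 0.308) and 0.231 (0.201 to 0.263) at 0 Aire UMIs to 0.122 and 0.140 at 1 and 0.0349 and 0.0316 at 4 to 6. At 7 or more it was at 0.0893 and 0.0162, and these last 2 bins held 2 to 7 UMIs each. Traf3 stayed between 0.385 and 0.50 and Map3k14 between 0.198 and 0.488 with no steady course. At 7 or more Aire UMIs the control intervals of Tnfrsf11b (1.84 to 2.51) and Nfkb2 (2.281 to 3.01) began just above the upper ends of the irradiated intervals, 1.83 and 2.280. At 0 Aire UMIs the irradiated intervals of Cd40 (0.240 to 0.307) and Relb (1.52 to 1.68) lay above the control ones (0.148 to 0.212 and 1.29 to 1.46).

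**Figure D3:**
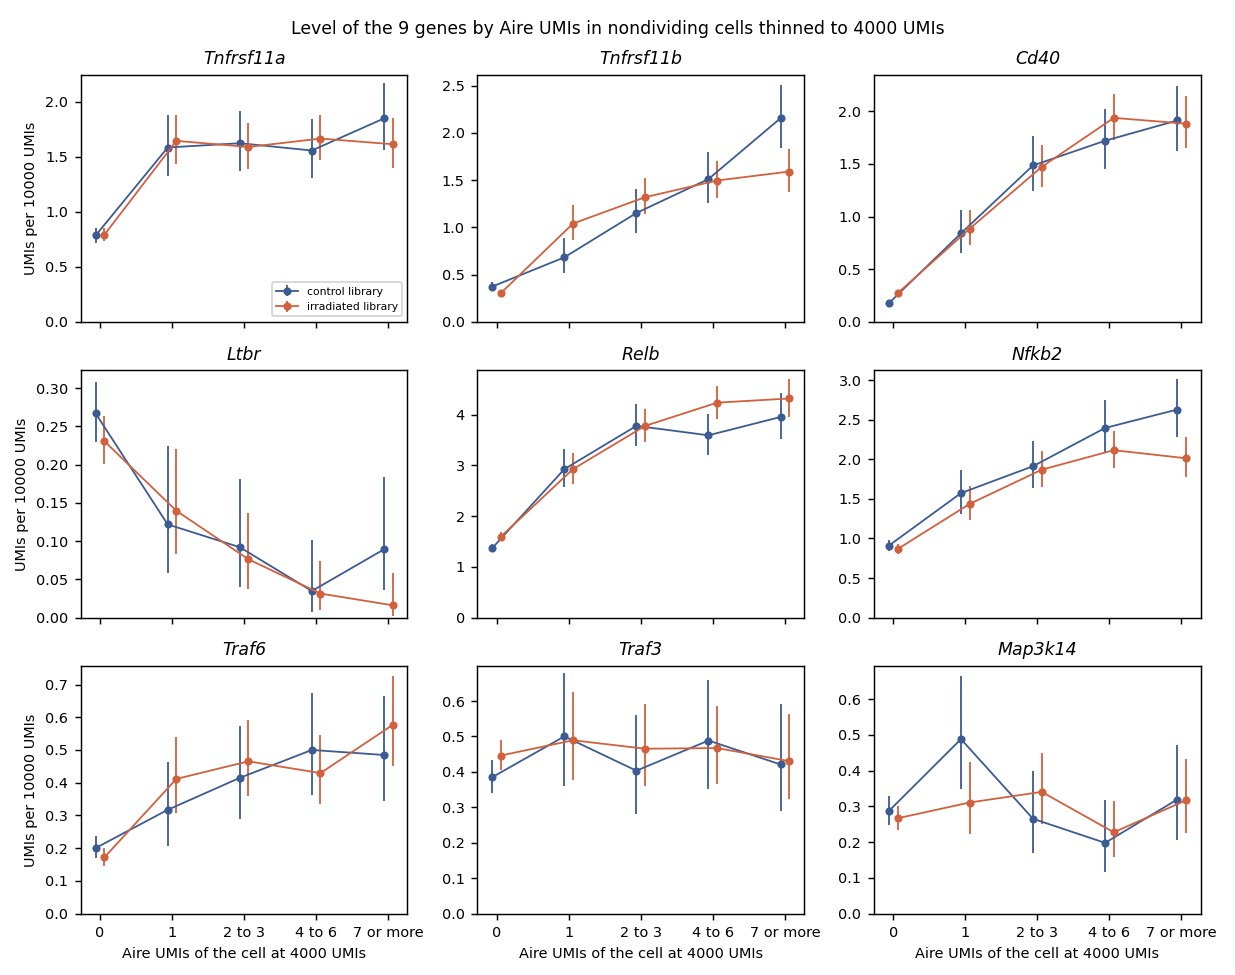
Levels of the 9 genes in UMIs per 10000 UMIs in nondividing cells thinned to 4000 UMIs, by the number of Aire UMIs of the cell; points are the control and irradiated libraries and bars are exact 95% Poisson intervals. Tnfrsf11a steps up between 0 and 1 Aire UMI (0.786 to 1.59 in the control), Cd40 climbs over the first 3 bins, and Ltbr declines. The bins pool several gates and differ in cell type, with Ccl21a-high, Pdpn-positive and ungated cells in the low bins only.

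Among dividing cells (S-phase and G2/M together), the same split was made on raw Aire UMIs. Cd40 was at 0.125 and 0.379 in cells with 0 Aire UMIs, at 0.868 and 0.789 with 1 to 7, and at 1.11 and 1.24 with 8 or more. Relb was at 1.56 and 2.07, then 2.94 and 3.09, then 3.38 and 3.37. Tnfrsf11a varied less, at 0.887 and 1.12, 1.30 and 1.23, and 1.06 and 1.21. With 8 or more, the Tnfrsf11b interval lay higher in the irradiated library (0.887 to 1.02, against 0.700 to 0.851 in the control). That of Nfkb2 lay lower there (1.44 to 1.61, against 1.62 to 1.84 in the control). The cells with 0 Aire UMIs numbered 34 in the control and 154 in the irradiated library.

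Genes most like Tnfrsf11a, Cd40 and Relb across the 10 gates were sought among 12549 genes, by the Pearson correlation of log2 levels and by the lower of the values from both libraries. For Tnfrsf11a these were Igfals (r = 0.975 and 0.992), Dapp1 (0.974 and 0.977), Skint2 (0.967 and 0.990), Skint1 (0.966 and 0.980) and Il23a (0.958 and 0.970). For Cd40 they were Mrpl38 (0.989 and 0.978), Inf2 (0.967 and 0.968), Ifi30 (0.962 and 0.970), Relb (0.969 and 0.961) and S100a14 (0.971 and 0.960). For Relb they were AU020206 (0.973 and 0.973), Dusp22 (0.984 and 0.968), Cd40, Skint10 (0.952 and 0.944) and Mrpl38 (0.978 and 0.941). Cd40 and Relb were thus each among the 5 genes most like the other. This depended on the 0.1 added to each level before the log. With 0.5 added, Cd40 was still among the 5 most like Relb, but Relb was not among the 5 most like Cd40. Nfkb2 went with Cd40 at 0.967 and 0.925 and with Relb at 0.952 and 0.917, while Traf3 went with Cd40 at 0.242 and 0.248 and Ltbr at -0.722 and -0.745. The 10 points of a gene share libraries and depth, and these values are descriptions.

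Between libraries the 9 genes differed little within gates, and directions follow the matrix names. Of 86 pairs of gene and gate with at least 50 UMIs, 4 were past 1.5-fold higher and 2 past 1.5-fold lower in the irradiated library. The share of all genes past 1.5-fold in either direction was 8.61% in cTEC-like, 10.6% in tuft-like, 10.2% in S-phase, 7.82% in G2/M, 13.3% in Aire-high, 14.0% in Aire-intermediate, 13.3% in enterocyte-like, 6.09% in Ccl21a-high, 11.1% in Pdpn-positive and 11.9% in ungated cells. In Aire-high cells none of the 9 was past 1.5-fold, and the median log2 ratio of irradiated over control was -0.02, beside -0.04 over all genes tested. In Ccl21a-high cells it was -0.05 beside -0.02, also with none past 1.5-fold. The shares of all genes take in genes with as few as 50 UMIs and were not counted among genes of like UMIs. They therefore do not show whether the 9 were steadier than other genes.

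Over all kept cells none of the 9 was past 1.5-fold, beside 13.1% of 18788 genes. With every gate given the same weight in both libraries, the log2 ratio was largest for Relb, at 0.16 (0.12 to 0.19), from weighted levels of 2.10 and 2.35. Cd40 was at 0.11 (0.05 to 0.17), Traf3 at 0.11 (0.03 to 0.19) and Traf6 at 0.10 (0.0023 to 0.19). Nfkb2 was at -0.10 (-0.14 to -0.05), Map3k14 at -0.12 (-0.23 to -0.02) and Ltbr at -0.15 (-0.28 to -0.02). Tnfrsf11a was at 0.01 (-0.04 to 0.06) and Tnfrsf11b at 0.06 (-0.0016 to 0.12). These weighted intervals are normal approximations. Without weights, and with opposite ends of the Poisson intervals, those of Ltbr (-0.33 to 0.03) and Traf6 (-0.0058 to 0.25) held 0. Those of Relb, Cd40, Traf3, Nfkb2 and Map3k14 did not, but that of Traf3 began at 0.00018. The median of all genes tested was -0.06. The intervals of Nfkb2 (-0.15 to -0.03) and Map3k14 (-0.29 to -0.0031) held that median.

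Relb was higher in the irradiated library in 9 of 10 gates, and its interval was above 0 in 5. The log2 ratio was 0.13 (0.06 to 0.21) in Aire-high cells, 0.21 (0.09 to 0.34) in Ccl21a-high cells, 0.31 (0.13 to 0.48) in ungated cells and 0.41 (0.16 to 0.68) in cTEC-like cells, and -0.05 in G2/M cells. Its partner Nfkb2 did not go along: the interval was below 0 in 4 gates, with -0.10 in Aire-high cells, -0.18 in G2/M cells, -0.20 in Ccl21a-high cells and -0.39 in S-phase cells, and above 0 in none. In S-phase and Aire-high cells these intervals ended at -0.0015 and -0.00059, nearer 0 than the medians of all genes tested there (-0.02 and -0.04). The ratios within gates were not centred on such medians. The share of all genes with an interval off 0 was not counted, so the numbers of gates have no background beside them. In the same Ccl21a-high cells Relb went from 1.38 to 1.60 and Nfkb2 from 0.868 to 0.757. The fifth gate with a Relb interval above 0 was the Pdpn-positive one, at 0.93 (0.39 to 1.49), the only Relb value past 1.5-fold.

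Cd40 was level where it was highest, with a log2 ratio of -0.02 (-0.14 to 0.09) in Aire-high cells and 0.02 (-0.17 to 0.21) in G2/M cells. It was lower in enterocyte-like cells (0.726 and 0.584, a log2 ratio of -0.31, with an interval that held 0) and close in tuft-like cells (0.109 and 0.103, under the minimum of UMIs). Among pairs with at least 50 UMIs its highest ratios were in 3 gates where it was low. In Ccl21a-high cells 186 UMIs in 133 of 929 cells stood against 421 UMIs in 290 of 1500, or 0.169 and 0.253 per 10000, a log2 ratio of 0.58 (0.23 to 0.93). Ungated cells gave 0.308 and 0.457, a log2 ratio of 0.56 (0.20 to 0.94), and cTEC-like cells 0.203 and 0.297, at 0.54 (-0.07 to 1.20). After thinning, 4.74% (3.46 to 6.31) of control and 7.87% (6.55 to 9.35) of irradiated Ccl21a-high cells held a Cd40 UMI. The Aire cell markers Fezf2, Hdc, Cd80 and Ubd summed to 5.26 and 4.85 UMIs per 10000 in Ccl21a-high cells, to 15.5 and 15.9 in ungated cells and to 5.27 and 6.81 in cTEC-like cells. The 4 enterocyte markers summed to 1.31 and 0.574, 22.1 and 6.79, and 1.17 and 2.95 in the same gates, and the 4 fibroblast markers to 2.76 and 2.01, 8.04 and 4.06, and 2.90 and 1.38. Their part in the Cd40 values was not tested. None of the 3 ratios was past 1.5-fold, but in a setting chosen after seeing the data, without the cell with the most UMIs of the gene in each library and gate, those of Ccl21a-high (0.63) and ungated cells (0.65) were, and the pairs of all 9 genes past 1.5-fold higher numbered 6 in place of 4. The difference of ratios between gates was not tested.

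Pdpn-positive cells held 2 of the 4 pairs past 1.5-fold higher. Tnfrsf11a was at 0.125 (24 UMIs) and 0.273 (39 UMIs), a log2 ratio of 1.12 (0.07 to 2.23), and Relb at 0.488 and 0.932, a log2 ratio of 0.93 (0.39 to 1.49). Cd40, with 7 and 23 UMIs, was under the minimum. Other genes moved in the same gate. The fibroblast markers Pdgfra, Pdgfrb, Dcn and Lum, most of it Dcn at 19.2 and 11, summed to 19.7 and 11.5, and the 4 Aire cell markers to 1.08 and 3.11, most of it Ubd at 0.747 and 2.42. The 4 enterocyte markers summed to 1.31 and 6.54, most of it Reg3g at 0.913 and 6.49, and the 5 tuft markers to 0.0778 and 0.252. Their part in the Tnfrsf11a and Relb values was not tested. With every gate minimum doubled, this gate held under 50 cells in a library, and both values could not be computed.

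Tnfrsf11b held the other pairs past 1.5-fold higher and 1 of the lower ones. In cTEC-like cells 34 UMIs in 8 of 140 cells stood against 16 UMIs in 10 of 319, a log2 ratio of -2.08 (-3.39 to -0.87). One control cell held 15 of the 34 UMIs, and the thinned shares of cells with a UMI were 2.14% and 2.19%. In tuft-like cells 24 UMIs in 13 cells stood against 45 UMIs in 11 cells, a log2 ratio of 1.24 (0.22 to 2.32), and 40 of the 45 lay in the 24 irradiated tuft-like cells that also met another gate. Without such cells in either library the tuft-like value was -0.69, and with all cells thinned to 4000 UMIs the cTEC-like value was -0.09, on 10 UMIs. In enterocyte-like cells 0.855 and 1.29 gave 0.60 (0.19 to 1.01), with 30.7% and 41.8% of cells holding a UMI before and 16.7% (10.3 to 24.8) and 24.8% (17.9 to 32.8) after thinning. That value was 0.38 with gate minimums on UMIs per 10000, 0.24 as a mean over cells and 0.52 without cells that met more than 1 gate, each under 1.5-fold. The second lower pair was Map3k14 in Aire-intermediate cells, at 0.357 (0.285 to 0.442) and 0.225 (0.179 to 0.280), which gave -0.66 (-1.30 to -0.03) on the log2 scale. With all cells thinned to 4000 UMIs, 1 of the 6 pairs, Tnfrsf11a in Pdpn-positive cells, was still past 1.5-fold, on 23 UMIs and so under the minimum.

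**Figure D4:**
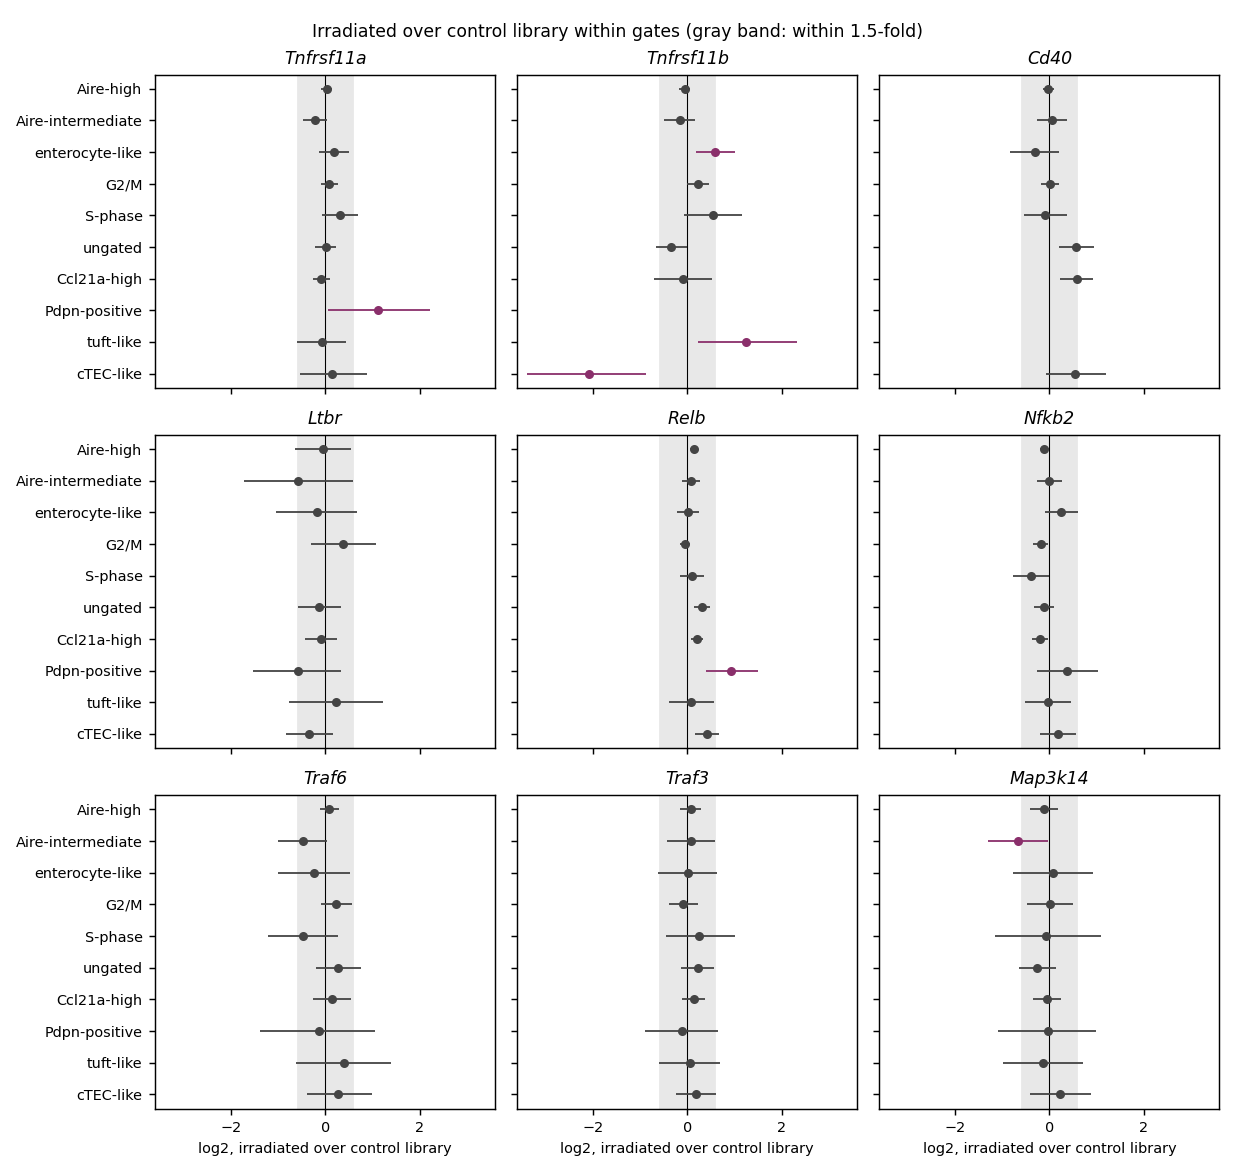
Log2 ratio of irradiated over control levels for the 9 genes within each of 10 gates; bars join opposite ends of the Poisson intervals, the gray band marks 1.5-fold, and pairs under 50 UMIs are left out. Relb lies above 0 in 9 gates, and the 6 pairs past 1.5-fold are drawn in purple.

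Of the 32 genes of the wider list, none was past 1.5-fold the same way in 3 or more gates. Over all kept cells 0 of the 30 with enough UMIs were past 1.5-fold in either direction. In Aire-high cells 1 was higher and 1 lower of 30, and in Ccl21a-high cells 0 were higher and 1 lower of 27. The median log2 ratio of the list was -0.05 in Aire-high and -0.09 in Ccl21a-high cells, beside -0.04 and -0.02 over all genes. The genes with the most UMIs of each role were within 1.5-fold in Aire-high cells.

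The barcodes that the filter left out, 1704 control and 2097 irradiated, carried these transcripts as well. Tnfrsf11a stood at 0.773 (0.707 to 0.843) and 0.857 (0.789 to 0.931) UMIs per 10000 there, Relb at 1.57 and 1.67, and Nfkb2 at 1.13 and 0.999. For Relb these levels were below those over all kept cells, at 2.29 and 2.59.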

How the data were processed

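The authors ran Cell Ranger on the mm10 build to make the deposited matrices, whose values are raw counts of unique molecular identifiers (UMIs) for each gene and barcode. The matrix headers name Cell Ranger 5.0.1 and the submitters' processing notes 5.1; the paper names 3' chemistry version 3 and the labels version 2. Genes found in at least 5 barcodes counted towards the cell filter. No doublet caller was run; the limit of 7500 detected genes was the study's.

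Cells were gated on raw UMIs of marker genes, first match winning: Psmb11 and Prss16 (10 or more, above Aire; cTEC-like), thymocyte genes (10 or more), Avil, Trpm5, Pou2f3 and Dclk1 (10 or more, at least 2 detected; tuft-like), G2/M genes (15 or more), S-phase genes (15 or more), Aire (8 or more), keratinocyte genes (20 or more), microfold genes (20 or more), Lypd8, Muc13 and Guca2a (10 or more; enterocyte-like), Aire 3 to 7, Ccl21a (50 or more) and Pdpn (2 or more). In a gate, the UMIs of a gene were summed and divided by all UMIs, per 10000. Ratios added 0.5 UMIs to each sum and needed 50 UMIs over both libraries; thinning drew UMIs without replacement to 4000 for each cell. Correlations used log2(level + 0.1) and genes with at least 500 UMIs. The members, lists and gates were chosen with earlier results of these data known. Genes named in the text are the 9 members, the listed gene with the most UMIs of each role, listed genes past 1.5-fold in 3 or more gates, and the 5 genes most alike; the 5 lower list genes, Tnfsf11 and Cd40lg were named after their values were seen. Ccl21a and Ccl19 are listed more than once, and the first listing was used. Python 3.11.15, numpy 2.4.6, scipy 1.17.1, pandas 2.3.3 and matplotlib 3.10.9 were used. The computations were tested on simulated data. Only counting error was computed (levels rest on 51586327 and 75542631 UMIs of kept cells). Variation of levels between the cells of a gate was not computed. Variation between mice, pools and libraries could not be measured, and pooled mice cannot be told apart. Alternatives changed the gates, filters, denominator, depth and minimums.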

Additional observations from a re-analysis of the deposited data

Results flagged for a closer look

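Tnfrsf11b differed between the libraries in opposite directions in different gates, and the difference between gates was not tested, since each condition has 1 library. The log2 ratio of irradiated over control was -2.08 in cTEC-like cells, 1.24 in tuft-like cells and 0.60 in enterocyte-like cells, by matrix names, and all 3 signs would be the opposite by the sample labels. Without the cell that held the most UMIs in each library, the values were -1.67, 1.11 and 0.83, and without cells that met more than 1 gate they were -2.18, -0.69 and 0.52. Cells that met more than 1 gate held 15 of 34 control and 8 of 16 irradiated UMIs in cTEC-like cells, and 13 of 24 and 40 of 45 in tuft-like cells.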

How the results depend on the processing

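With cells thinned to 4000 UMIs, the log2 difference between Aire-high and Ccl21a-high cells was 5.04 for Tnfrsf11b and 1.49 for Relb (4.46 and 1.37 without thinning), the ratio of the libraries with gates weighted alike was 0.20 for Cd40 and -0.0079 for Traf6, and Tnfrsf11b in cTEC-like cells was at -0.09. Relb over all kept cells was at 0.23 when centred on the median of all genes. That median was -0.06, so the same centring brings Nfkb2, at -0.09 before it, nearer to 0. With at least 200 UMIs, 2 member pairs were past 1.5-fold higher and 0 lower, and 2 list pairs higher and 4 lower in place of 8 and 13. The 2 lower member pairs became 1 with gates on UMIs per 10000 (another pair than the 2, with Map3k14 at -0.27) and with thinning (also another pair). They became 1 with under 10% mitochondrial UMIs or without cells that met more than 1 gate (chosen after seeing the data). The number was 0 with doubled gate minimums (Map3k14 at -0.14) and 5 with means over cells. In several of these settings Tnfrsf11b in cTEC-like cells left the count through the minimum of 50 UMIs and not through its fold. It was at -1.24 on 41 UMIs with gates on UMIs per 10000 and at -2.25 on 47 with under 10%. Without cells that met more than 1 gate it was at -2.18 on 27, and with doubled minimums at -2.44 on 44. Tnfrsf11b in tuft-like cells turned to -0.69 without cells that met more than 1 gate. The log2 ratio of the shares of Aire-high and Ccl21a-high cells with a UMI, 2.85 for Cd40 and 0.90 for Relb, was 2.31 and 0.47 without thinning and 2.27 and 0.52 at 8000 UMIs. The causes were not tested. In all, 216 of the main values under alternatives stayed within their limits and 19 moved, among them Traf6 with gates weighted alike, whose small value changed sign under thinning. No replicate could be left out, and no paired analysis was possible because each condition has 1 library of pooled mice. Genes with few UMIs, such as Ltbr and Map3k14, were limited by depth.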
